A study of Mus musculus with 6 samples.

Results

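The MHC class I presentation machinery was followed across the cells of CT26 tumors as 10 genes, *H2-K1*, *H2-D1*, *B2m*, *Tap1*, *Tap2*, *Tapbp*, *Psmb8*, *Psmb9*, *Psmb10* and *Nlrc5*, out of 31053 genes in the deposited table. The genes were chosen by name for their place in the pathway, and cells labelled Stroma were set against the immune labels. CT26 is a colon carcinoma line of Balb/c mice; the study grew it under the skin of wild-type Balb/c females that were 5 to 6 weeks old on arrival. The labels list 6 tumors, 2 given vehicle (an isotype control in the study), 2 given a low dose and 2 given a high dose of an antibody that binds PD-1 and carries GITR ligand, and the methods place tumor collection 5 days after treatment. The high dose is 30 mg per kg, and the low dose is 10 mg per kg in one label and 30 in another; the study's text gives the single-cell experiment a dose that matches neither. All 6 were dissociated and enriched for CD45+ cells on beads before 3′ droplet single-cell mRNA-seq, so shares of cells do not reflect the tumor as a whole.

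Class I molecules show peptides from inside the cell to CD8+ T cells. The proteasome cuts proteins into peptides, the TAP transporter carries them into the endoplasmic reticulum, and tapasin helps load them onto a heavy chain paired with beta-2 microglobulin. Interferon-γ induces most of these genes and replaces the catalytic subunits of the standard proteasome with those of the immunoproteasome, and loss of the pathway is a known way for tumor cells to escape CD8+ T cells.

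The table held 33961 cells in 4 libraries named M1, M2, M5 and M6, with 7160 to 10294 cells and 158337797 to 315577167 unique molecular identifiers (UMIs, each standing for 1 captured transcript) in a library. No source used here ties a library name to a tumor or a treatment, so no value was compared between treatments, no library counts as a replicate, and no test was run: values are given library by library or as a range and median. Of 33850 distinct cell barcodes, 111 occurred in more than 1 library. Cells labelled Stroma numbered 15687, with a median of 40692 UMIs, against medians of 2811 to 10049 UMIs in the 10 immune labels. The authors' label comes from the nearest ImmGen profile. The 4 leukocyte markers (*Ptprc*, *Cd52*, *Coro1a* and *Laptm5*) summed to 31.5 to 49.1 CPM (UMIs of a gene scaled to 1e6 UMIs of the label) over the libraries in Stroma, against 2889 to 6023 CPM in the immune labels, and the 7 fibroblast markers summed to 1430 to 1568 CPM, against at most 319 CPM in any immune label and library. *Xist*, an RNA made from the inactive X chromosome of female cells, stood at 18.9 CPM in Stroma and at 823 to 1442 CPM in the immune labels. The Stroma label therefore held cells nearly without the CD45 transcript, *Ptprc*, by which the samples were enriched. The 4 epithelial markers (*Epcam*, *Krt8*, *Krt18* and *Krt19*) summed to 23.5 to 39.4 CPM in Stroma. Of the 2 with at least 5 CPM on average, *Krt18* was above every immune label in every library (median log2 ratio of Stroma to the immune labels 2.85) and *Epcam* was lower (-0.99). The hosts were female, and 13910 of the 15687 Stroma cells had no *Xist* UMI, at a median of 39661 UMIs in a cell. Single Stroma cells were not assigned to tumor or host from these lists.

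Both classical heavy chain genes lie on chromosome 17 of GRCm38, *H2-K1* at chr17:33996017-34000347 and *H2-D1* at chr17:35262730-35267499. *B2m* lies on chromosome 2 (chr2:122147686-122153083). *Psmb9*, *Tap1*, *Psmb8* and *Tap2* lie side by side within 34335 bases of chromosome 17 (chr17:34181987-34216321). The RefSeq start sites of *Tap1* and *Psmb9* are 226 bases apart on opposite strands. In GENCODE the 2 genes overlap at their starts, at 34187553 for *Tap1* and 34187764 for *Psmb9*. *Tapbp* (chr17:33915899-33929292) brings the count on chromosome 17 to 7 members. *Psmb10* (chr8:105935735-105938444) and *Nlrc5* (chr8:94434356-94527272) lie on chromosome 8. Of the 10 members, 8 matched a promoter in RefSeq sequence of GRCm38.p6. The 250 bases before the RefSeq start site of the heavy chains, their partner *B2m* and *Tap1* are printed. The first 3 were taken because they encode the surface molecule itself, and *Tap1* because its start lies close to that of *Psmb9*. RefSeq and GENCODE differ on some starts, and the windows of *H2-D1*, *Tapbp*, *Psmb8* and *Psmb9* lie inside the GENCODE gene. Capitals mark, on either strand, the palindromic NF-kB motif (the first capitals in the heavy chain windows), the core of the interferon-stimulated response element (the first capitals in *B2m*), AAGTGAAA (a single repeat of it), TGACGC (a short form of the X2 box) and ATTGG (the Y box).
H2-K1, chr17:34000348-34000597, minus strand: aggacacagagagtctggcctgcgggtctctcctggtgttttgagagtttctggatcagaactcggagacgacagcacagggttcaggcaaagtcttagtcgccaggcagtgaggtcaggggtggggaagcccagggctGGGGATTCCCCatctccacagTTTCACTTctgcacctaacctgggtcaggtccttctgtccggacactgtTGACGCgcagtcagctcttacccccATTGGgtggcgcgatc
H2-D1, chr17:35262844-35263093, plus strand: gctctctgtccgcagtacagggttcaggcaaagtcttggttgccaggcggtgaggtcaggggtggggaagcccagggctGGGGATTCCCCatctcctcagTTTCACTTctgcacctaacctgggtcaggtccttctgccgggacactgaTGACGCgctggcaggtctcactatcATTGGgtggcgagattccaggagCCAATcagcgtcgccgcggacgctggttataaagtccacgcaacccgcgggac
B2m, chr2:122147437-122147686, plus strand: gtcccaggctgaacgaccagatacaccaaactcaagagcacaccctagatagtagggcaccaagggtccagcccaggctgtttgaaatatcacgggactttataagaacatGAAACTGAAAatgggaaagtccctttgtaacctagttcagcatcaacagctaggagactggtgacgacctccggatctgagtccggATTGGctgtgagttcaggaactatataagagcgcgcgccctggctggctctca
Tap1, chr17:34187306-34187555, plus strand: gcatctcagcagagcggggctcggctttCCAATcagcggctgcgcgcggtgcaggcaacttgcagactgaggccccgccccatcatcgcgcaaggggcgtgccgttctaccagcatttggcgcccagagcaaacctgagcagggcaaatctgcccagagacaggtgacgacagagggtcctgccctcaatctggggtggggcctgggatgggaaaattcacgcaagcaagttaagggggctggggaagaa

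The block from the NF-kB motif through TTTCACTT, the reverse complement of AAGTGAAA, to TGACGC had the same order in *H2-K1* and *H2-D1*. The palindromic NF-kB motif was found in those 2 of the 8 member windows and in 10 of 32851 promoter windows of the same length, or 0.0304%. AAGTGAAA and TGACGC, added after the longer motifs had been searched, were found in the same 2 windows and in 1.36% and 6.12% of all windows. The core of the interferon-stimulated response element was found in *B2m* alone among the members (2.98% of all windows), TTCNNNGAA, the core of the gamma-activated site, in *Psmb8* alone (7.02%), and ATTGG in 6 of 8 (33.8%). The *Tap1* and *Psmb9* windows overlap, and their ATTGG matches are the same bases read from opposite strands. GGGANTTCC, TGACGCA and TGACGTCA were in none of the 8 windows. A match is a string of letters and not a measured binding site.

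All 10 genes were detected in Stroma cells. Expressed as CPM of the summed UMIs of a label, 8 of 10 members lay within 2-fold of the median immune label in every library, where 57% of the 9667 genes with a mean of at least 5 CPM did. One member, *Nlrc5*, was 2-fold or more lower in every library, a rule that 17.6% of genes met, and 0 of 10 were 2-fold or more higher, which 11.3% of genes were. Stroma lay below every immune label in every library for 0 of 10 members (12.2% of genes) and above every one for 0 of 10 (15.3% of genes). The median log2 ratio over the members was -0.19, beside -0.08 over all genes tested. These ratios are of a gene's share of the RNA. Counted as UMIs per cell, all 10 members were higher in Stroma, with a median log2 ratio of 1.98 beside 2.00 over all genes, as Stroma cells held more UMIs in all. With median-of-ratios scaling, 6 of 10 were higher, with a median of 0.026 beside 0.08 over all genes.

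**Figure D1:**
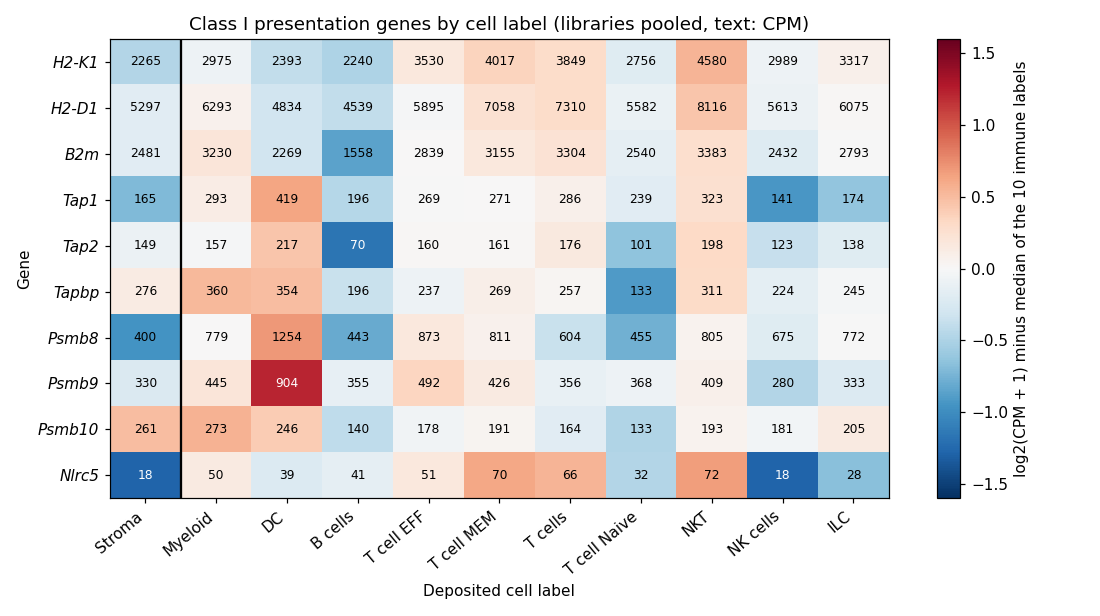
Level of each of the 10 genes (rows) in each deposited label (columns), libraries pooled. Numbers are CPM and color is log2(CPM + 1) minus the median of the 10 immune labels; the Stroma column is darkest blue for *Nlrc5* (18.0 CPM) and *Psmb8* (400 CPM) and red for *Psmb10* (261 CPM).

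Over cells of all depths, *H2-D1* and *B2m* lay close to the leukocytes in every library. *H2-D1*, a heavy chain that presents peptide, had 4985, 5251, 5812 and 5713 CPM in Stroma in M1, M2, M5 and M6, beside immune medians of 5285, 5666, 6544 and 6468 CPM. The log2 ratio was -0.18 to -0.08 in the 4 libraries, and Stroma stood above the DC and B cells labels when libraries were pooled (5297 CPM against 4834 and 4539). Over the immune labels *H2-D1* was highest in NKT, at 8116 CPM. *B2m*, the light chain that every classical heavy chain needs to reach the surface, had 2320, 2372, 2888 and 2751 CPM in Stroma, with log2 ratios of -0.15 to -0.11. Its pooled level of 2481 CPM in Stroma lay beside 2432 in NK cells, with overlapping library ranges, and above 2269 in DC and 1558 in B cells. Among shallow cells *B2m* was lower in Stroma than in Myeloid. Under 10000 UMIs it had 1085 CPM against 3145 CPM, and at 10000 to 20000 UMIs 2566 CPM against 3353 CPM. Stroma cells of 20000 to 40000 UMIs had 3139 CPM and those of at least 40000 UMIs 2340 CPM.

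*H2-K1*, the other classical heavy chain of the reference, was lower in Stroma than in most leukocytes. It had 2221, 2238, 2377 and 2335 CPM in Stroma, a narrower spread than in any immune label present in all 4 libraries, and immune medians of 2960 to 3543 CPM. The log2 ratio was -0.58 to -0.41, and 7 of 8 immune labels in M1 and M2, 8 of 8 in M5 and 10 of 10 in M6 stood above Stroma. NKT again led with 4580 CPM, and neighboring ranks in the order of labels overlapped over libraries for most pairs, including Stroma with DC (2393 CPM) and B cells (2240 CPM). The Stroma value counted per cell was 99.97 UMIs, against 51.1 in T cell EFF and 26.9 in NK cells. The order against NK cells turned among deeper cells. In cells of 20000 to 40000 UMIs *H2-K1* had 2656 CPM in Stroma against 2477 CPM in NK cells, and still lay below 3125 CPM in ILC, 3247 CPM in T cell EFF and 3278 CPM in Myeloid. *H2-D1* in the same class had 6508 CPM in Stroma, above 4597 CPM in NK cells, 5289 CPM in T cell EFF and 5700 CPM in ILC and below 6869 CPM in Myeloid. In cells of at least 40000 UMIs *H2-D1* in Stroma (5025 CPM) was above NK cells alone of these 4 labels (4261 CPM, from 75 cells). The reference genome carries the alleles of C57BL/6 mice while both the host and CT26 are Balb/c. The longest *H2-K1* and *H2-D1* transcripts (1619 and 2102 bases) had 1448 identical bases in an alignment of 2141 columns. Those columns include gaps, which come in part from the difference in length. How reads of Balb/c heavy chains were split between these genes and their relatives is thus uncertain in every label.

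**Figure D2:**
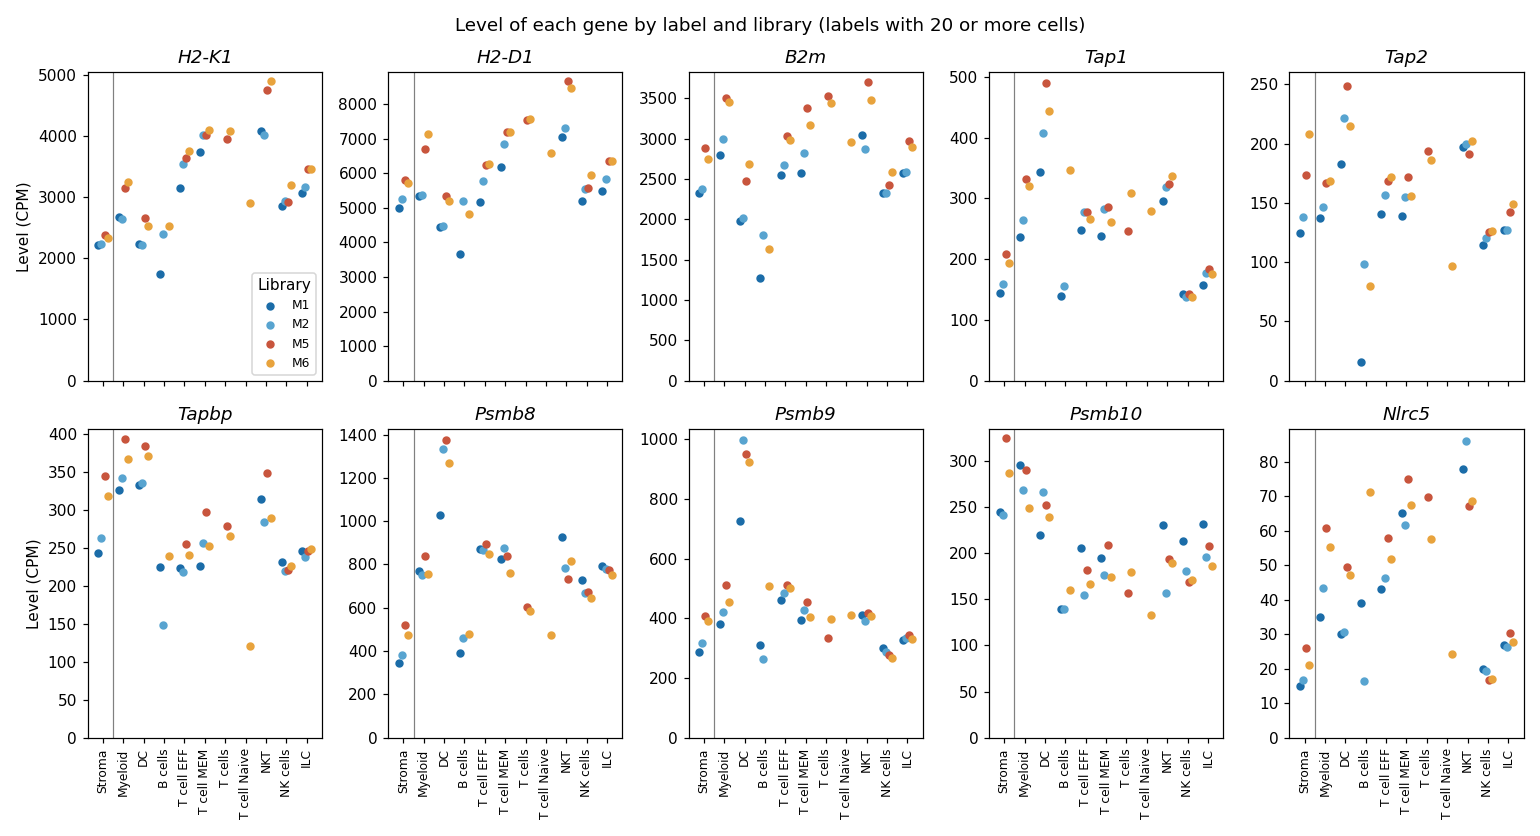
Level in CPM (vertical axis, from 0) of each gene in each label with at least 20 cells, 1 point per library. For *H2-D1*, *B2m*, *Tap2* and *Tapbp* the Stroma points lie among those of the immune labels; for *Psmb8* and *Nlrc5* they lie at the lower end.

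The transporter and its loading partner split. *Tap1*, a subunit of the peptide transporter, was lower in Stroma, at 144, 159, 208 and 194 CPM against immune medians of 237 to 294 CPM, a log2 ratio of -0.77 to -0.44. It was highest in DC, at 419 CPM, whose library range did not overlap that of the next label. NK cells (141 CPM) stood below Stroma, with library ranges that only just missed each other (138.1 to 142.9 against 143.8 to 207.9 CPM). The log2 ratio of Stroma to NK cells was 0.011 to 0.54. *Tap2*, the other subunit, had 125, 138, 173 and 208 CPM in Stroma and a ratio from -0.14 to 0.36 that changed sign between libraries. *Tapbp*, which encodes tapasin, the bridge between transporter and heavy chain, had 244, 263, 345 and 319 CPM in Stroma with ratios of 0.03 to 0.34. Its median ratio was negative when Stroma was limited to cells of 5000 to 20000 UMIs. The same held for Stroma cells with no UMI of the collagen gene *Col3a1*. Over all Stroma cells, Myeloid (360 CPM), DC (354 CPM) and NKT (311 CPM) stood above the pooled 276 CPM of *Tapbp*, all 3 with library ranges that overlapped that of Stroma. Compared within each library, Myeloid and DC were above Stroma in all 4 and NKT in 3. Over cells of all depths, Stroma thus fell within the range of the leukocytes for all of these genes.

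The 3 immunoproteasome subunits differed most from one another. *Psmb8*, which takes the place of *Psmb5*, had 342, 383, 521 and 474 CPM in Stroma against immune medians of 754 to 811 CPM, a log2 ratio of -1.24, -1.03, -0.63 and -0.67 in M1, M2, M5 and M6. It was below all 10 immune labels when pooled, at 400 CPM against 443 in B cells and 1254 in DC, while the 37 cells labelled Stem cells, which were not counted among the immune labels, had 348 CPM. It missed the rule of lying below every immune label only through library M6, where T cell Naive had 473 CPM beside 474 CPM in Stroma. *Psmb9*, which takes the place of *Psmb6*, had 288, 318, 406 and 391 CPM in Stroma, below the immune median in every library (log2 ratio -0.42 to -0.07). In M1, 8 of 8 immune labels stood above Stroma, in M2 6 of 8, in M5 5 of 8 and in M6 8 of 10. DC stood apart at 904 CPM. *Psmb10*, which takes the place of *Psmb7*, was higher in Stroma, at 245, 241, 326 and 287 CPM and ratios of 0.18 to 0.69, but the ratio was -0.045 when Stroma was limited to cells of 5000 to 20000 UMIs. Pooled over all depths, it was exceeded by Myeloid alone (273 CPM, with overlapping library ranges), and the lymphocyte labels lay at 133 to 205 CPM.

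Set against the subunits they replace, in the same cells, the immunosubunits took a smaller share in Stroma when cells of all depths were counted. Cells of at least 40000 UMIs made up 50.8% of Stroma, against 5.78% of T cell EFF and 7.84% of Myeloid. *Psmb8* UMIs were 58.6% of *Psmb8* plus *Psmb5* in Stroma (95% exact binomial interval 58.5 to 58.7, which covers counting error only), against 69.8% in B cells, the lowest immune label, and 83.0% in DC. By library the share was 53.0%, 60.4%, 64.4% and 62.0% in M1, M2, M5 and M6. Over cells of all depths, *Psmb5* itself was above every immune label in every library, with a median log2 ratio of 0.37. Both terms of the pair thus moved. That order did not hold among shallower cells. *Psmb5* in Stroma had 82.9, 171 and 227 CPM under 10000, at 10000 to 20000 and at 20000 to 40000 UMIs. Myeloid had 166, 214 and 232 CPM there, T cell EFF 192, 239 and 257 CPM, and NK cells 181, 215 and 230 CPM. ILC had 195, 223 and 222 CPM, the last below Stroma. At 40000 UMIs or more Stroma had 306 CPM, above these labels. *Psmb8* had 186, 346 and 492 CPM in Stroma under 10000, at 10000 to 20000 and at 20000 to 40000 UMIs. At 40000 UMIs or more it had 384 CPM, so that from the class before it *Psmb8* fell while *Psmb5* rose. Myeloid had 692 and 796 CPM of *Psmb8* under 10000 and at 10000 to 20000 UMIs. The *Psmb8* share was not split by depth, and how far its value over all depths rests on the deepest Stroma cells was not tested. *Psmb9* was 67.9% of its pair in Stroma, within the immune range of 60.6% in NK cells to 78.4% in T cell Naive, and *Psmb10* was 64.5% of its pair, within 57.9% to 70.9%. Over all 3 pairs Stroma had 63.0%, against 67.6% in B cells (interval 63.7 to 71.3), 70.0% in NK cells, 71.9% in Myeloid, 73.1% in T cell EFF and 78.7% in DC. These values pool libraries that differ. By library Stroma had 58.9%, 63.6%, 67.9% and 65.9% in M1, M2, M5 and M6, against 70.9%, 70.1%, 69.7% and 69.6% in NK cells. Over cells of all depths, the difference between Stroma and leukocytes thus lay mainly in the pair that holds *Psmb8*.

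**Figure D3:**
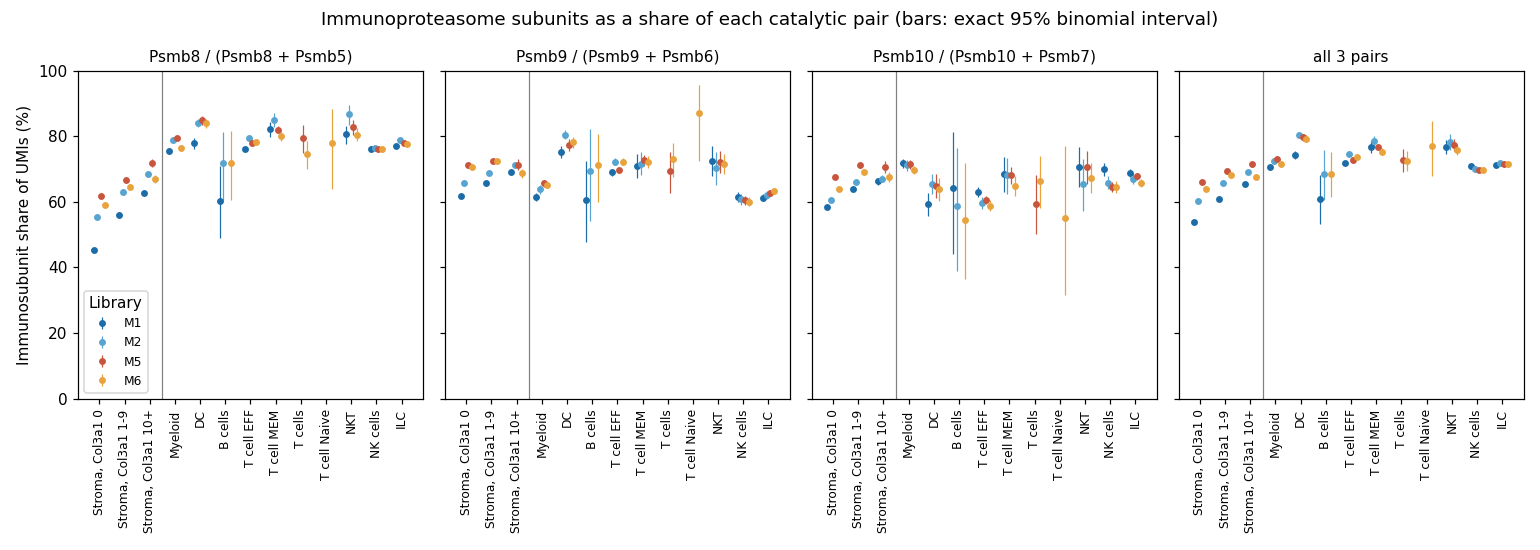
Share of immunosubunit UMIs in each catalytic pair (percent, vertical axis from 0) by label and library, with exact 95% binomial intervals; Stroma is split by *Col3a1* UMIs per cell. In the *Psmb8* pair the Stroma points begin at 45.4% in library M1 for cells with no *Col3a1* UMI, and all 3 pairs together give 63.0% for Stroma as a whole.

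*Nlrc5*, the transactivator of class I genes, was the member furthest below the immune labels when cells of all depths were counted, an order that changed with depth. It had 14.9, 16.8, 26.0 and 21.0 CPM in Stroma, against immune medians of 36.9 to 59.2 CPM, and log2 ratios of -1.30 to -1.10. NK cells had 17.9 CPM over all depths, with a library range of 16.8 to 19.9, while ILC had 28.0, Myeloid 49.7 and NKT 72.3 CPM. The *Nlrc5* value of Stroma depended on cell depth. In the 1614 Stroma cells under 10000 UMIs it was 76.5 CPM, and it was 33.6, 22.1 and 15.0 CPM in those of 10000 to 20000, 20000 to 40000 and at least 40000 UMIs. The shallow Stroma cells had a median of 35.7% mitochondrial UMIs, 71.3% of them had over 10%, and *Malat1*, a nuclear RNA, stood at 43816 CPM in them against 7810 CPM in the deepest. In the same shallow cells *B2m* was 1085 CPM and *Psmb8* 186 CPM, against 2340 and 384 CPM in the deepest. T cell EFF cells went from 72.8 CPM *Nlrc5* under 10000 UMIs to 34.1 CPM at 40000 UMIs or more, and Myeloid cells from 63.8 to 38.8 CPM, so that in the class of at least 40000 UMIs Stroma (15.0 CPM) was below both. NK cells had 12.7 CPM there, from 75 cells, with 1 library reaching 20 of them, and were also below Stroma in the 3 shallower classes, with 16.0 and 11.5 CPM in those of 10000 to 20000 and 20000 to 40000 UMIs. ILC were below Stroma in the 2 shallowest classes (23.8 CPM in that of 10000 to 20000 UMIs) and above it in the 2 deepest (26.9 and 29.7 CPM). Under 10000 UMIs Stroma was above all 4 of these immune labels. Immune cells of at least 40000 UMIs were few, 210 each in T cell EFF and Myeloid, and doublets were not called. Limited to Stroma cells of 5000 to 20000 UMIs, and with the immune labels unrestricted, the log2 ratio of *Nlrc5* was 0.030, while without cells over 10% mitochondrial UMIs it was -1.30. The part of depth and cell quality in the *Nlrc5* value was not tested further.

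**Figure D4:**
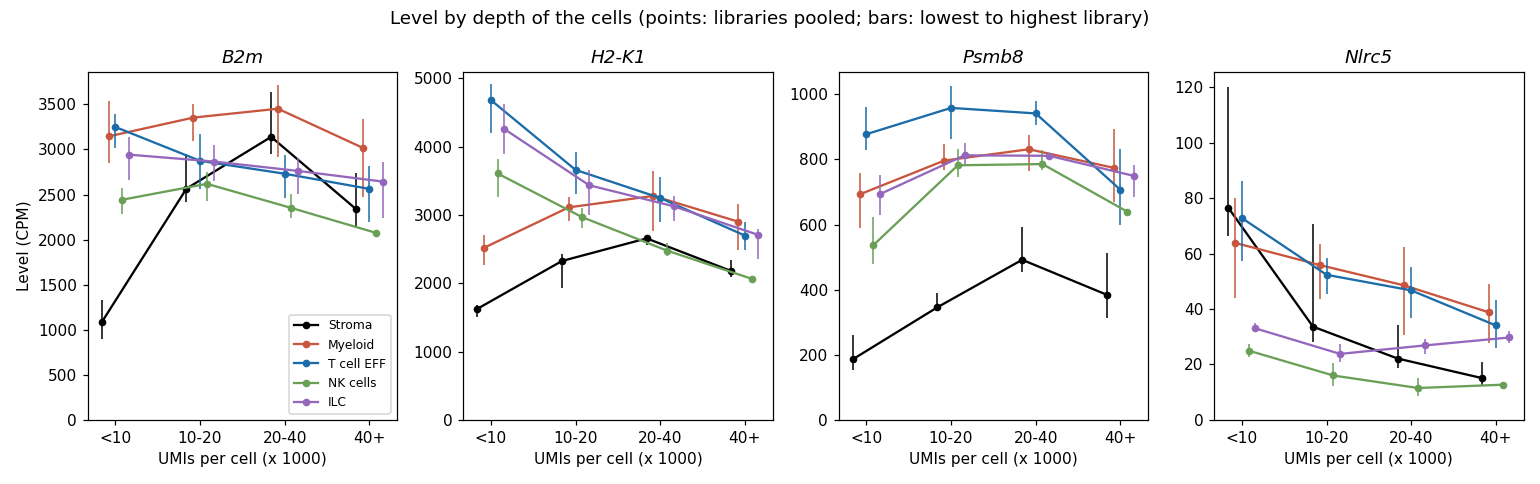
Level in CPM (vertical axis, from 0) of 4 genes in cells of rising UMI count (horizontal axis, UMIs per cell divided by 1000) for Stroma and 4 immune labels; bars run from the lowest to the highest library. In Stroma, *B2m* is 1085 CPM and *Nlrc5* 76.5 CPM in the shallowest cells, against 2340 and 15.0 CPM in the deepest, while *Psmb8* in Stroma stays below the 4 immune labels in every class.

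Single Stroma cells nearly all carried the surface molecule's transcripts. After each cell was thinned to 2000 UMIs, which left out 45 Stroma cells, 99.4% carried an *H2-D1* UMI, 95.7% an *H2-K1* UMI and 94.3% a *B2m* UMI, and without thinning the shares were 99.96%, 99.8% and 99.1%. *Ptprc*, which Stroma cells should lack, was seen in 1.57% of thinned Stroma cells and *Xist* in 2.54%, and without thinning in 16.4% and 11.3%. In thinned T cell EFF cells, of which 3545 remained, the shares were 99.9%, 99.3% and 99.0% for the same 3 members, and *Ptprc* was in 77.9%. *Psmb8* was in 47.1% of Stroma cells (interval 46.4 to 47.9) against 78.1% of T cell EFF, 70.4% of Myeloid and 66.3% of NK cells. *Psmb10* ran the other way, in 34.9% of Stroma cells against 28.0% of T cell EFF and 27.8% of NK cells, with 35.4% in Myeloid. *Tap1* was in 26.1% of Stroma cells, *Tap2* in 24.8%, *Tapbp* in 38.0% and *Psmb9* in 40.9%. *Nlrc5* was in 4.53%, the value of NK cells being the same 4.53% and that of T cell EFF 11.3%; at this depth most cells that carry the transcript give no UMI, and unthinned 46.5% of Stroma cells had one.

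The sum of the 10 members in a cell spread widely within Stroma. It ran from 7 UMIs at the 5th percentile through a median of 23 to 43 at the 95th percentile, per 2000 UMIs of a cell, and 5 of 15642 cells had none. The median was 30 in T cell EFF, 36 in NKT, 27 in Myeloid, 26 in NK cells and 18 in B cells. Stroma cells over 10% mitochondrial UMIs had a median of 11 and those under 5% a median of 23, so the low end held cells of high mitochondrial share. Within Stroma cells *H2-D1* rose with *H2-K1* (Pearson r = 0.51 over 15642 thinned cells, 0.49 to 0.52 by library) and with *B2m* (r = 0.46), and in T cell EFF the same pairs gave 0.54 and 0.32. These are descriptions over cells that share their library and whose quality varied as given above; the scarcer members were too sparse for a correlation over cells to be read. Over the 38 sums of a label in a library, *H2-K1* and *H2-D1* (r = 0.90), *B2m* and *H2-D1* (r = 0.88) and *Tap1* and *Psmb9* (r = 0.87) went together. *Psmb10* followed the other members least (r = 0.25).

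Stroma cells were further split by the collagen gene *Col3a1*, a fibroblast marker, into 7921 with no UMI, 6600 with 1 to 9 and 1166 with at least 10. Between the last class and the first, 8 of 10 members were higher in every library (37.9% of genes were), all but *Psmb9* and *Nlrc5*. *Psmb8* had 248, 303, 466 and 411 CPM in cells with no *Col3a1* UMI in M1, M2, M5 and M6, and 484, 521, 657 and 567 CPM in cells with at least 10. *H2-K1* stood at 2058 CPM, 2399 CPM and 2785 CPM pooled over the 3 classes in rising order of *Col3a1*, *B2m* at 2318, 2590 and 2872 CPM, and the immunosubunit share of all 3 pairs at 60.2%, 64.6% and 67.6%. *Nlrc5* was 17.7, 18.1 and 18.7 CPM. Median depth was 39416 UMIs in the first class and 37288 in the last. *Xist* was 18.3 CPM, 11.0 CPM and 69.9 CPM pooled over the 3 classes, and the last class was highest in each of the 4 libraries. *Ptprc* was 6.43, 8.30 and 9.03 CPM pooled, with no one order over the libraries. *Krt18*, a keratin of epithelial cells, ran the other way when pooled, at 36.8, 21.8 and 12.2 CPM. In M6 it had 32.4, 16.1 and 25.3 CPM, so the order did not hold in every library. The other epithelial markers were not split in this way. The part of these transcripts in the difference was not tested.

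The other genes of the pathway, 34 in all, were counted by role under the same rules. Of 10 heavy chain and class I-like genes, 8 had at least 5 CPM on average (*H2-T24* and *Mr1* did not), and 4 of these were 2-fold or more lower in Stroma in every library (17.6% of all genes were). They were *Cd1d1*, which presents lipids (median log2 ratio -3.89), *H2-Q7* (-2.60), *H2-T23*, the mouse Qa-1 heavy chain that NK receptors read (-1.72), and *H2-Q10* (-1.21). *H2-T23* had 131 CPM in Stroma against 303 CPM in NK cells and 461 CPM in T cell EFF. *H2-Q4* (0.26) was the highest of this list, and *H2-Q* genes share reads among themselves, so their separate values are uncertain. Of 6 loading and trimming genes, 0 were 2-fold lower; *Hspa5*, an endoplasmic reticulum chaperone, was above every immune label in every library (0.35), and *Tapbpl*, a relative of tapasin, was lowest (-1.04). Of 6 proteasome activator and constitutive subunits, 0 were 2-fold lower. *Psmb5* was above every immune label over cells of all depths. In each class under 40000 UMIs it was below Myeloid, T cell EFF and NK cells, as given above. *Psmb7* was the highest of the 6 (0.50), *Psme3* the lowest (-0.43), and *Psmb6* had -0.27.

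The regulators held the widest differences. Of 12, 4 were 2-fold or more lower in Stroma in every library and also below every immune label (17.6% and 12.2% of all genes met these rules). They were *Irf8*, a transcription factor of myeloid and lymphoid cells (-5.98), *Ifngr1*, the ligand-binding chain of the interferon-γ receptor (-4.13), and the receptor-associated kinases *Jak1* (-2.26) and *Jak2* (-1.53). *Ifngr1* had 41.2 to 43.7 CPM in Stroma, against 908 to 1101 CPM in NK cells and 155 to 211 CPM in DC. *Ifngr2*, the second receptor chain, was on the other side (0.69), with 34.7 CPM in Stroma, 11.2 CPM in T cell EFF and 80.7 CPM in Myeloid. *Irf1*, a transcription factor induced by interferon-γ that acts on class I genes, was higher in every library (0.46 to 1.18), with 276 CPM in Stroma, 123 CPM in T cell EFF and 348 CPM in Myeloid. Over the 4 lists no gene was 2-fold or more higher in Stroma in every library (11.3% of all genes were).

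**Figure D5:**
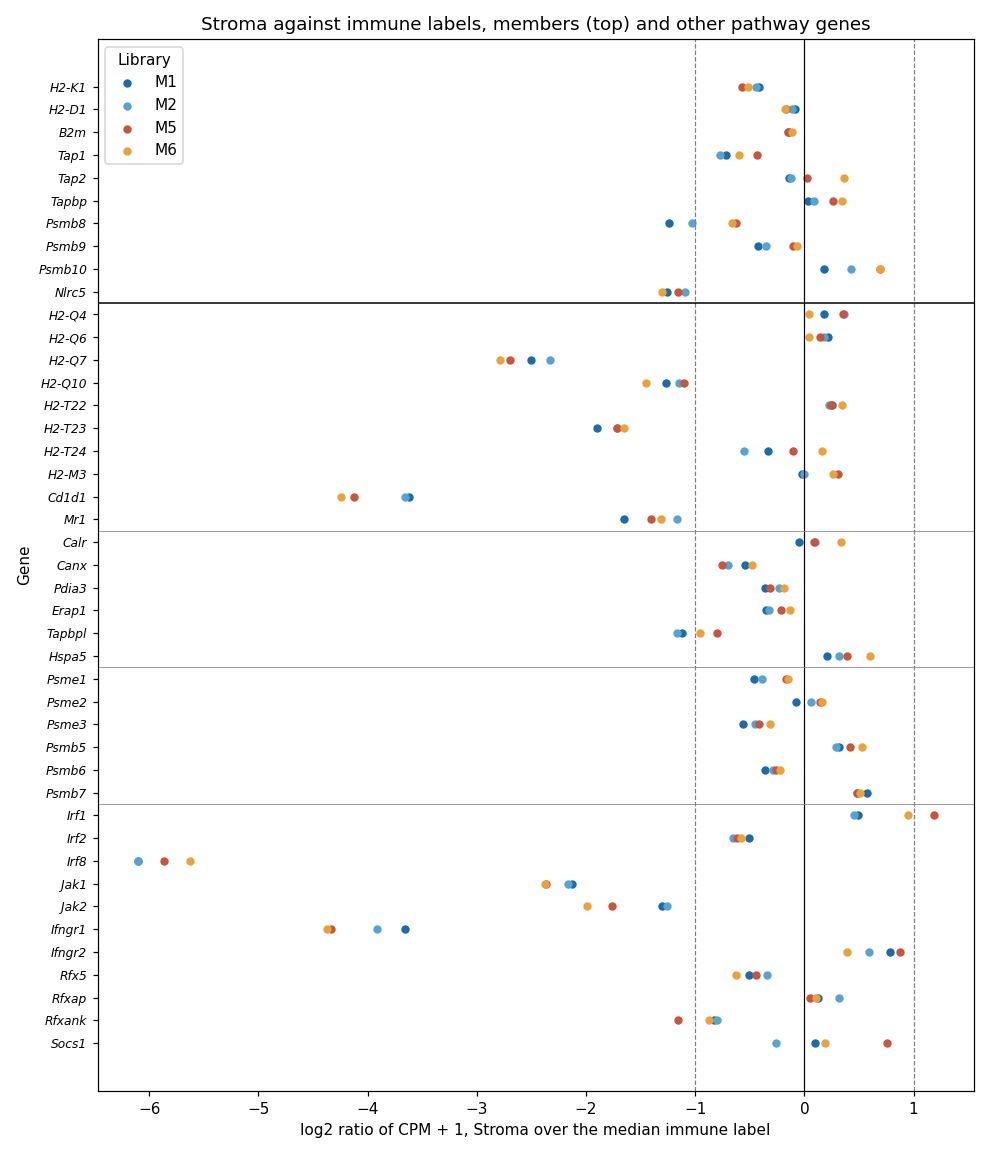
log2 ratio of CPM + 1 of Stroma over the median immune label (horizontal axis) for the 10 members above the thick line and other pathway genes below it, 1 point per library; dashed lines mark 2-fold. The members lie between -1.30 and 0.69, while *Irf8*, *Ifngr1* and *Cd1d1* lie near the left edge.

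In Stroma, all 10 members were higher in both M5 and M6 than in both M1 and M2, an order that 30.7% of genes had. The same order held for 7 members in T cell EFF (30.7% of genes), 6 in ILC (30.3%), 8 in Myeloid (26%), 6 in DC (23%) and 3 in NK cells (23.5%). Stroma cells had medians of 38910, 40222, 42315.5 and 43988.5 UMIs in M1, M2, M5 and M6, and made up 61.2%, 57.1%, 27.2% and 30.9% of the cells there. No label pairs M5 with M6 or M1 with M2, and the libraries are not tied to treatments, so the order is a description only. The part of these values in the order was not tested.

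Outside the pathway, the 10 genes whose log2 level most resembled the mean of the members over the 38 sums were *Slco3a1* (r = 0.87), *Sirt2*, *Slc26a2*, *Itm2c*, *Etv6*, *Rab11fip1*, *Ppp1r15b*, *Cyb5a*, *Vamp8* and *Nfkbib* (r = 0.81). They include genes far lower in Stroma, such as *Rab11fip1* (log2 ratio -3.65) and *Slco3a1* (-3.26), and genes near the immune level, such as *Nfkbib* (0.09). The 38 sums share 4 libraries and are not independent.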

How the data were processed

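The authors counted UMIs with Cell Ranger 3.0.2 on GRCm38 (mm10, per the labels), kept cells above 500 UMIs, and deposited the UMI counts without normalization, each cell with its library name and cell type. The methods name no doublet removal. No doublet caller was run here; Stroma cells with a *Ptprc* UMI were left out in an alternative. The 4 library columns' values could not be matched to samples.

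UMI counts were added up by label and library (at least 20 cells), scaled to CPM and compared as log2(CPM + 1), Stroma minus the median of the immune labels. A gene was called when its ratio was 1 or more, or -1 or less, in every library. Genes with a mean of 5 CPM or more formed the background. Python 3.11.15, numpy 2.4.6, scipy 1.17.1, pandas 2.3.3 and biopython 1.88 were used. Ratios and thinning were tested on simulated data. All 10 members were named; a gene of the regulator list is not reported here. The members, lists and motifs were chosen with earlier results of these data known. Depth per cell was 1220 to 213981 UMIs, and intervals cover counting error only. Gene positions are from GENCODE M21, and promoter sequences with their start sites from RefSeq.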

Additional observations from a re-analysis of the deposited data

How the results depend on the processing

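No paired analysis was possible because the libraries carry no sample, group or replicate number. That limit is on comparing treatments. Stroma was compared with the immune labels within each library. The libraries are not replicates, so nothing here measures the spread between tumors, and 3′ counts do not tell alleles apart. The median log2 ratio over the 10 members, -0.19, was 1.98 as UMIs per cell, 0.026 with median-of-ratios scaling, -0.26 as a mean over cells, -0.31, -0.10 and -0.037 for Stroma cells with no, 1 to 9 and at least 10 *Col3a1* UMIs, and -0.37 for Stroma cells of 5000 to 20000 UMIs, a choice made after seeing the data, as was 1 to 9 *Col3a1* UMIs. *Nlrc5* reversed to 0.98 as UMIs per cell, which raised all genes, and to 0.030 at 5000 to 20000 UMIs; the cause was not tested. The count of members 2-fold lower went from 1 to 0 as UMIs per cell, with median-of-ratios scaling, with a pseudocount of 10 CPM, as a mean over cells and in cells with at least 10 *Col3a1* UMIs. The count below every immune label went from 0 to 1 without library M6, without Stroma cells with a *Ptprc* UMI, in those with no *Col3a1* UMI and in those with no *Xist* UMI (added after seeing the data), and to 2 at 5000 to 20000 UMIs. The count above every label was 7 as UMIs per cell, a scale that raised all genes (median log2 ratio 2.00). Shares of all genes under these alternatives are not set beside the counts. The counts are therefore not read as a trait of the members. Leaving out 1 library gave a median of -0.25 to -0.16, a count below every label of 0 to 1, and a median over libraries of the Stroma immunosubunit share of all 3 pairs of 63.6% to 65.9% (64.8% with all 4).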

Other observations

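In Stroma the immunosubunit share of all 3 pairs was 58.9% for library M1, 63.6% for M2, 67.9% for M5 and 65.9% for M6. These values describe libraries whose treatment is not known.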
